A study of Mus musculus with 165 samples.

Results

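The genes described here are 10 markers of endoplasmic reticulum (ER) stress: Hspa5, Hsp90b1, Dnajb9, Sdf2l1, Pdia4, Manf, Creld2, Xbp1, Atf4 and Ddit3. They were chosen by symbol, as the rows of the brain and liver count tables whose Ensembl identifier maps to one of these names, which gave 11 of 55471 rows. Ddit3 took 2 of the rows. The second, ENSMUSG00000116429, lies wholly inside the first in the annotation and held 0 counts in all 165 libraries, so Ddit3 here is ENSMUSG00000025408. All 10 genes passed the filter on low counts in both tissues.

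The study sequenced polyadenylated RNA of whole tissue pieces labelled brain or liver, from 83 male mice of the inbred strain C57BL/6J/Ukj kept for ageing, with no other treatment named. The ages were 3, 9, 15, 24 and 28 months, with 15, 16, 16, 17 and 18 brain libraries and 16, 16, 16, 17 and 18 liver libraries, each from its own mouse. Both tissues were at hand for 82 mice, matched by age and number. Every age and tissue was spread over the same 3 library preparations, called prep 1, prep 2 and prep 3. Total counts were 11.5 to 73.4 M per brain library and 5.82 to 57.5 M per liver library. Alb, the serum albumin gene of hepatocytes, was above 1 CPM (read counts scaled to library size) in 1 of 82 brain libraries, at 18.5 CPM, and in all 83 liver libraries. The labels name no brain region and no sorted cell type. In such bulk samples, fewer cells of a type and less RNA per cell cannot be told apart.

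Brain 28 months replicate 15 stood apart from the other brain libraries. It had the fewest counts (11.5 M) and a median Spearman correlation of 0.866 with the others, followed by brain 24 months replicate 13 at 0.953 and then by 0.983. In the liver the least typical were 24 months replicate 13 (0.919) and 28 months replicate 9 (0.930). Several of the genes described here were extreme in the 2 brain libraries, and the main results that turned on them are given with and without them.

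The ER is the compartment where secreted and membrane proteins fold. When unfolded proteins build up there, the chaperone BiP, encoded by Hspa5, leaves the sensors Ern1 (IRE1), Eif2ak3 (PERK) and Atf6, which then act through the transcription factors XBP1, ATF4 and ATF6 to raise chaperones, degradation factors and other stress genes. PERK also slows protein synthesis, by phosphorylating the initiation factor eIF2, and that in turn favours translation of ATF4. This unfolded protein response is known for its daily work in the liver, where hepatocytes secrete much of the plasma protein, and its later ATF4 and DDIT3 (CHOP) branch is known for its link to cell death.

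The promoters of 3 of the genes are shown because they carry a match to the ER stress response element (ERSE), the motif through which ATF6 is known to act. The motif was searched as CCAAT, 9 bases of any kind and CCACG, on both strands in the 250 bases before each gene's RefSeq start, with sequences of build GRCm38.p6. A window was at hand for 9 of the 10 genes, all but Manf. The match was found in 3 of 9 windows, against 0.113% of 32851 windows of all genes, and Hsp90b1 had 2 matches. The windows are Hspa5 (chr2:34771840-34772089, plus strand), Hsp90b1 (chr10:86705445-86705694, minus strand) and Creld2 (chr15:88819396-88819645, plus strand), each ending at the RefSeq start and written 5′ to 3′ on the gene's strand with the ERSE in capitals. The GENCODE M21 start lies inside the window for Hspa5, 120 bases from its end, so that the match falls after that start, and for Hsp90b1, 65 bases from its end, with both matches before it. The Creld2 window lies wholly before both starts. In Creld2 and in the second Hsp90b1 match the motif runs on the opposite strand.
Hspa5 promoter: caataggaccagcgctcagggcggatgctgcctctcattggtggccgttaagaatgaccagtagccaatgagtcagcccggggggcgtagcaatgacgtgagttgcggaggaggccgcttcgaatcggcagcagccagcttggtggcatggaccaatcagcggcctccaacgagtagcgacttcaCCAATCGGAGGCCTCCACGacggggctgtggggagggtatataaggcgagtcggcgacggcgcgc
Hsp90b1 promoter: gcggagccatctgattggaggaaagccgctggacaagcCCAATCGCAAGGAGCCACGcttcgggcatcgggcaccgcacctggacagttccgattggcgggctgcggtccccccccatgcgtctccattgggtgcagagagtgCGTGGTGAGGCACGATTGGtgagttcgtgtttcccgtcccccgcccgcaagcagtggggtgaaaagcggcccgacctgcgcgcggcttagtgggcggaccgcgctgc
Creld2 promoter: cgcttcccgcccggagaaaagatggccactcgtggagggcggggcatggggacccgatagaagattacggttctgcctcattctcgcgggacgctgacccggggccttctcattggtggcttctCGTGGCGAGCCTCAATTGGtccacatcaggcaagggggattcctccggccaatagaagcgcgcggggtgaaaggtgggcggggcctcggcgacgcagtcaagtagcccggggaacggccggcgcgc

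With 1 mismatch allowed, Pdia4 and Ddit3 were added, giving 5 of 9 windows against 1.32% of all windows. A further 3 motifs were searched on both strands. The ERSE-II motif (ATTGG, 1 base of any kind and CCACG), the unfolded protein response element TGACGTGG bound by XBP1 and ATF6, and the ATF4 composite element TGATGNAA were each in 0 of 9 windows, against 0.0304%, 0.563% and 3.45% of all windows. A match or its absence describes these letters in this window only.

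At 3 months the genes stood in a similar order of level in both tissues, here compared as CPM per kilobase of annotated exon. In the brain Hspa5 (73.7 ± 18.5, SD, n = 15) and Hsp90b1 (73.4 ± 10.3), the HSP90 paralogue of the ER, did not differ beyond their spread. Atf4 followed at 38.6 ± 2.57, Xbp1 at 25.9 ± 5.46, and Pdia4 (19.0 ± 4.20) and Dnajb9 (17.7 ± 1.97), neighbours within their spread. Sdf2l1, Creld2, Manf and Ddit3 lay between 10.4 and 8.54, with neighbours again within their spread. In the liver Hspa5 (337 ± 188, n = 16) and Hsp90b1 (234 ± 83.6) led, followed by Pdia4 (123 ± 33.6) and Xbp1 (107 ± 48.7). Atf4, Sdf2l1, Creld2, Dnajb9 and Manf lay between 60.1 and 36.2, and Ddit3 was lowest at 4.80 ± 2.07. Apart from Ddit3, no neighbours in the liver order differed beyond their spread.

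Levels in the liver were higher than in the brain at 3 months for 9 of the 10 genes, where 43.2% of the 14035 genes tested in both tissues were called higher in the liver and 47.0% lower (edgeR quasi-likelihood test, Benjamini-Hochberg adjusted p under 0.05, as for all calls below). The excess ran from 2.39-fold for Atf4 (adjusted p = 1.47e-37) to 9.88-fold for Pdia4, a protein disulfide isomerase (adjusted p = 1.65e-62). Hspa5 was 6.90-fold higher in the liver (log2 2.79 ± 0.15, SE). Ddit3, the exception, had a log2 difference of -0.22 ± 0.17 (adjusted p = 0.19), and was called lower in the liver by voom with quality weights (-0.44, adjusted p = 2.4e-06). These folds rest on scaling unlike tissues to each other.

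From 3 to 28 months, 6 of the 10 genes fell in the brain, and none of the 10 rose. Of all 18711 genes tested, 12.0% were called lower and 16.3% higher. The fall comprised chaperones (Hspa5, Hsp90b1, Sdf2l1), the foldase Pdia4, the secreted factor Creld2 and the transcription factor Xbp1. The median log2 fold change of the 10 was -0.30, beside 0.01 over all genes. The 4 genes not called were Dnajb9, Manf, Atf4 and Ddit3.

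Among brain chaperones, Hspa5 had a lowest, median and highest value of 198, 302 and 477 CPM at 3 months and of 168, 222 and 285 CPM at 28 months. All 18 old brains lay below the median of the young ones, 3 lay below the lowest of them, and 11 of 15 young brains lay above every old one. The level was 28.5% lower (log2 fold change -0.48 ± 0.08, SE; adjusted p = 4.8e-06). Hsp90b1 went from 245, 288 and 382 CPM to 202, 259 and 332 CPM, with broadly overlapping groups (log2 -0.19 ± 0.06, adjusted p = 0.0086). Without replicate 15, the highest old brain, the change was -0.21 ± 0.06. A pseudogene on the other strand shares 10.3% of the exon bases of Hsp90b1. Sdf2l1, a co-chaperone that works with BiP and ER J-proteins, went from 7.37, 11.4 and 18.5 CPM to 5.77, 7.46 and 10.9 CPM. Again all 18 old brains lay below the young median, and the level was 33.4% lower (log2 -0.59 ± 0.12, adjusted p = 5.9e-05). Dnajb9 (ERdj4), a J-protein co-chaperone of BiP, had 34.9, 44.2 and 56.2 CPM at 3 months and 12.9, 47.7 and 54.1 CPM at 28 months. The lowest of these is replicate 15, and the change was not called with it (log2 0.02 ± 0.07, adjusted p = 0.86) or without it (log2 0.08 ± 0.04, adjusted p = 0.16). Voom with quality weights called it higher (log2 0.09 ± 0.04, adjusted p = 0.043).

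Pdia4 in the brain went from 31.5, 45.0 and 66.2 CPM at 3 months to 9.19, 31.1 and 41.9 CPM at 28 months. Of 18 old brains, 11 lay below the lowest young brain. The log2 fold change was -0.55 ± 0.09 (adjusted p = 1.1e-06), and -0.49 ± 0.07 without replicate 15, the library at 9.19 CPM. Creld2, a secreted ER protein induced by ER stress, went from 9.76, 13.5 and 18.7 CPM to 7.65, 9.77 and 19.99 CPM, where the highest old value is again replicate 15. It was lower in 17 of 18 old brains than the young median (log2 -0.40 ± 0.09, adjusted p = 0.00037). Without replicate 15 the log2 fold change of Creld2 was -0.48 ± 0.08.

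Manf, a secreted neurotrophic factor retained in the ER until stress, turned on that library. At 3 months it had 24.6, 31.6 and 43.9 CPM and at 28 months 18.5, 25.5 and 104 CPM, the highest being replicate 15. With all libraries the fall was not called (log2 -0.21 ± 0.13, adjusted p = 0.21). Without replicate 15 Manf was lower, by a log2 of -0.42 ± 0.08 (adjusted p = 2.7e-05), which takes the genes called lower from 6 to 7. Exons of Manf overlap those of Dcaf1 on the other strand, and whether the counting used the strand is not given in the sources used here.

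Of the brain transcription factors, Xbp1 went from 58.9, 82.9 and 123 CPM to 52.6, 64.8 and 74.9 CPM. All 18 old brains lay below the young median (log2 -0.39 ± 0.06, adjusted p = 1.1e-06). Without replicate 15, the lowest old brain, the change was -0.37 ± 0.06. Gene counts do not separate the spliced, active Xbp1 mRNA from the unspliced form. Atf4 had 79.2, 90.6 and 101 CPM at 3 months and 83.2, 93.1 and 126 CPM at 28 months and was not called (log2 0.05 ± 0.05, adjusted p = 0.45).

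Ddit3 in the brain had 12.6, 14.5 and 18.2 CPM at 3 months and 12.5, 14.4 and 124 CPM at 28 months. Apart from replicate 15, which is the 124 CPM, the old brains spanned 12.5 to 20.4 CPM. The log2 fold change was 0.43 ± 0.18 (adjusted p = 0.066) with it and 0.00 ± 0.09 (adjusted p = 0.99) without it, and 0.40 (adjusted p = 0.025) with the clock score described below as a covariate. The adjusted p crossed the threshold, at 0.0475 to 0.049, without brain 24 months replicate 13 or without brain 28 months replicates 12, 16 or 17, with replicate 15 kept each time. Brain 24 months replicate 13 had the next highest Ddit3 at 47.3 CPM, where the other 16 brains of that age spanned 13.4 to 19.0 CPM, and also the highest Atf4 of any brain at 149.9 CPM. Ddit3 shares exon bases with Mars on the other strand.

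**Figure D1:**
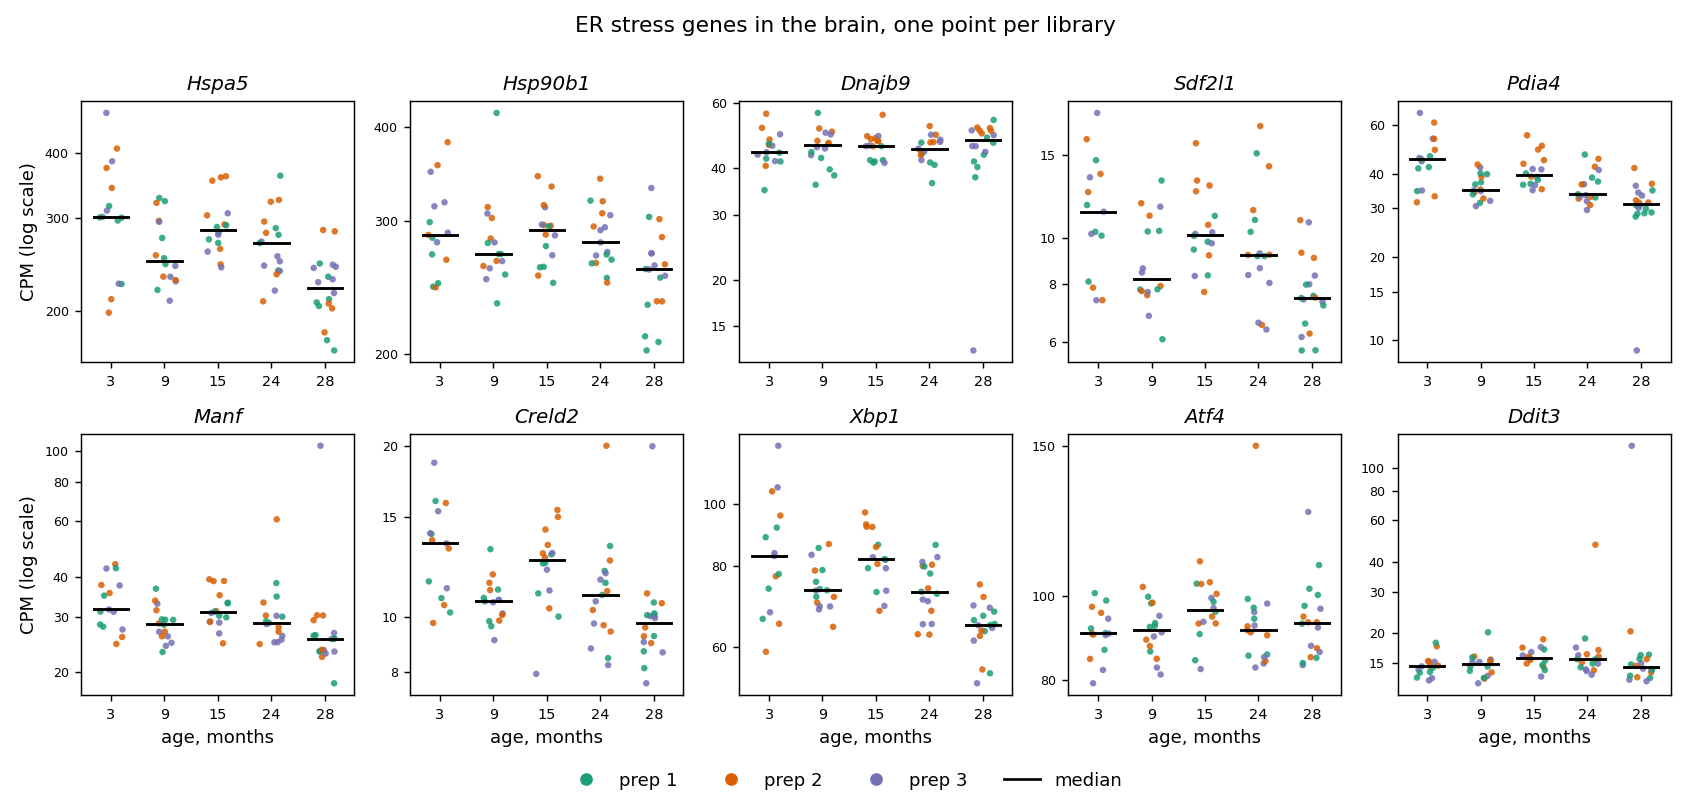
Level of each of the 10 genes in every brain library, in CPM on a log axis, by age in months; each point is 1 library, coloured by prep, and the black bar is the median. Hspa5, Pdia4, Sdf2l1, Creld2 and Xbp1 lie lower at 28 than at 3 months, and the single high Ddit3 and Manf points at 28 months (124 and 104 CPM) are replicate 15, which is also the low Dnajb9 and Pdia4 point.

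No brain gene of the 10 was called between neighbouring ages by the edgeR test with all libraries. The counts called were 0 from 3 to 9 months (beside 0.315% of all genes), 0 from 9 to 15 (0.0%), 0 from 15 to 24 (0.732%) and 0 from 24 to 28 (1.09%). At an unadjusted p under 0.05 the counts were 5, 3, 2 and 5. DESeq2 called 1, 0, 0 and 0, and voom with sample quality weights called 2, 0, 2 and 2. These counts moved when brain 28 months replicate 15 was left out, and the cause was not tested. Without it Pdia4 (log2 -0.33 ± 0.07, adjusted p = 0.0093) and Creld2 (-0.31 ± 0.08, adjusted p = 0.041) were called lower from 3 to 9 months, and Hspa5 (-0.27), Manf (-0.29) and Sdf2l1 (-0.39) were called lower from 24 to 28 months. Without both brain libraries that stand apart, the counts were 2 from 3 to 9 months and 0 from 24 to 28 months. The median level of Hspa5 was 302, 249, 286, 269 and 222 CPM at the successive ages, so the 15-month brains stood above the 9-month ones, a step whose log2 fold change was positive for 9 of the 10 genes with none called.

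In the liver 9 of the 10 genes fell from 3 to 28 months, and none rose. Of all 15579 genes tested, 30.0% were called lower and 31.9% higher. All roles were represented: the 4 chaperones and co-chaperones, the foldase and secreted factors Pdia4, Manf and Creld2, and the transcription factors Xbp1 and Ddit3. The median log2 fold change of the 10 was -0.51, beside 0.01 over all genes. The size of the fall depended on how libraries were weighted. With voom and sample quality weights only Dnajb9 was called, although 9320 genes were called in all, and the median over the 10 genes was -0.20. Voom without such weights, chosen after seeing the data, called 8.

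The livers of 3-month mice spread widely. Hspa5 had a lowest, median and highest value of 563, 1166 and 3007 CPM at 3 months and of 411, 844 and 1470 CPM at 28 months. The highest young livers were replicate 16 at 3007 CPM, replicate 10 at 2937 CPM, replicate 15 at 2396 CPM and replicate 13 at 2119 CPM. In all, 6 of the 16 young livers lay above every old liver and the other 10 overlapped them. The level was 37.6% lower at 28 months (log2 -0.68 ± 0.18, adjusted p = 0.00059), and 14 of 18 old livers lay below the young median. The log2 fold change ran from -0.74 to -0.58 when each library was left out in turn, and the call held each time, while voom with quality weights gave -0.27 ± 0.17 (adjusted p = 0.17).

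Creld2 had the largest log2 fold change of the 10 in the liver by the edgeR fit of all libraries, with the same libraries high. It had 14.2, 51.4 and 195 CPM at 3 months and 11.3, 28.0 and 73.8 CPM at 28 months. Replicates 16 and 10, at 195 and 191 CPM, were the highest young livers. The log2 fold change was -1.19 ± 0.29 (adjusted p = 0.00026). Dnajb9 went from 42.4, 92.6 and 188 CPM to 28.6, 53.0 and 92.2 CPM, with all 18 old livers below the young median (log2 -0.87 ± 0.19, adjusted p = 4.9e-05). Dnajb9 was called in 12 of 13 alternative fits and Creld2 in 11, with a log2 fold change of -0.41 (adjusted p = 0.21) for Creld2 by voom with quality weights. Over these fits the Dnajb9 change ran from -1.09 to -0.59 and the Creld2 change from -1.67 to -0.41.

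Of the other liver chaperones, Sdf2l1 went from 17.4, 48.7 and 147 CPM to 15.1, 33.0 and 78.0 CPM (log2 -0.73 ± 0.22, adjusted p = 0.0037), and was called in 9 of 13 alternative fits, with -0.27 by voom with quality weights. Hsp90b1 went from 566, 871 and 1638 CPM to 570, 779 and 1131 CPM (log2 -0.25 ± 0.11, adjusted p = 0.044). That call, made in 4 of 13 alternative fits, was close to the threshold: leaving out any of 19 single libraries ended it, with the highest adjusted p, 0.14, without liver 3 months replicate 10.

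Pdia4 and Manf also fell. Pdia4 went from 192, 289 and 442 CPM to 136, 238 and 367 CPM (log2 -0.28 ± 0.11, adjusted p = 0.029), a call that ended without any of 6 single libraries (liver 3 months replicates 10, 12, 15 and 16 and liver 28 months replicates 7 and 9; adjusted p up to 0.073). It was made in 7 of 13 alternative fits, with -0.04 as the smallest change. Manf went from 44.3, 102.5 and 271 CPM to 33.4, 80.8 and 138 CPM (log2 -0.61 ± 0.20, adjusted p = 0.0064), and was called in 10 of 13 alternative fits, with -0.21 by voom with quality weights.

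Liver Xbp1 went from 208, 281 and 733 CPM to 197, 248 and 446 CPM, so that only 11 of 18 old livers lay below the young median (log2 -0.40 ± 0.14, adjusted p = 0.012). Without liver 3 months replicate 13, the library at 733 CPM, the log2 fold change was -0.27 and the adjusted p was 0.075. Over the alternative fits Xbp1 was called in 9 of 13 and Ddit3 in 8. Ddit3 went from 3.07, 7.19 and 15.0 CPM to 3.55, 6.04 and 13.3 CPM (log2 -0.40 ± 0.15, adjusted p = 0.015), and the adjusted p was 0.057 without liver 3 months replicate 15. Atf4, with 106, 148 and 168 CPM at 3 months and 87.4, 122 and 198.5 CPM at 28 months, was not called (log2 -0.17 ± 0.08, adjusted p = 0.074). It was called without liver 28 months replicate 12 (adjusted p = 0.013) or replicate 13 (adjusted p = 0.039).

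**Figure D2:**
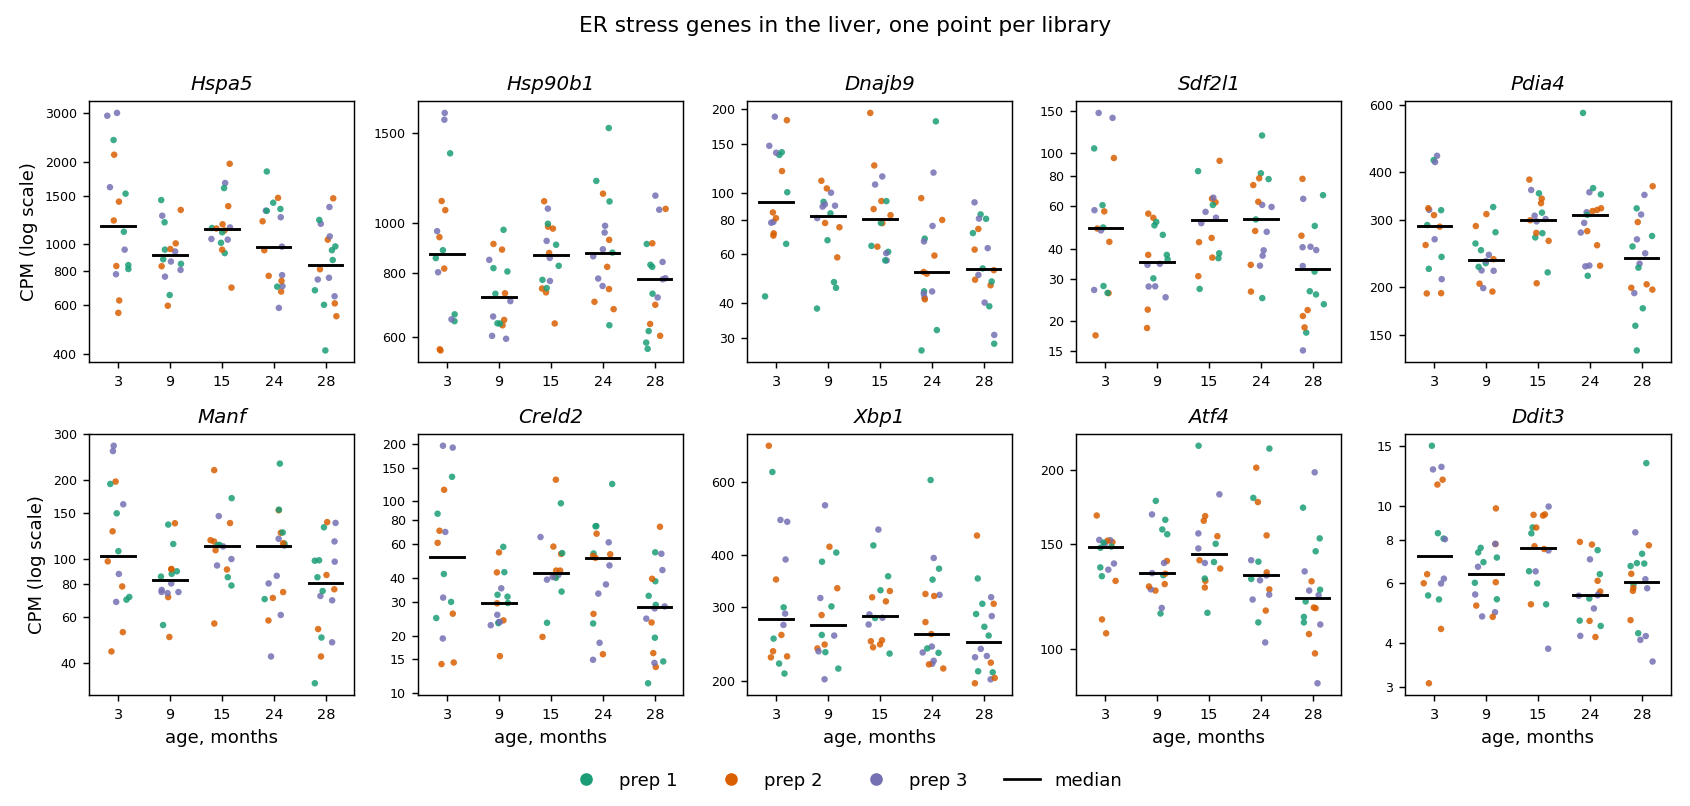
Level of each of the 10 genes in every liver library, in CPM on a log axis, by age in months; each point is 1 library, coloured by prep, and the black bar is the median. At 3 months Hspa5 spans 563 to 3007 CPM and at 28 months 411 to 1470 CPM, and the same few 3-month libraries are high for Hspa5, Manf, Sdf2l1 and Creld2.

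From 3 to 9 months all 10 log2 fold changes were negative, and Creld2 was called lower (-1.14, adjusted p = 0.015), 1 of 10 beside 3.16% of all genes called lower. The call ended without liver 3 months replicate 10 (adjusted p = 0.058) or replicate 16 (adjusted p = 0.065). From 9 to 15 months all 10 were positive and 0 were called by edgeR, DESeq2 or voom, with 5 at an unadjusted p under 0.05, beside 0.0514% of all genes called. From 15 to 24 months Ddit3 was called lower (-0.38, adjusted p = 0.036), beside 14.4%. From 24 to 28 months Pdia4 (-0.33, adjusted p = 0.029) and Sdf2l1 (-0.62, adjusted p = 0.045) were called lower, beside 9.13%. Each of these last 3 calls ended when 1 of 8, 5 and 17 single libraries was left out, with adjusted p up to 0.071 for Ddit3 (without liver 15 months replicate 9), 0.094 for Pdia4 and 0.099 for Sdf2l1 (both without liver 24 months replicate 5).

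Within each prep fitted alone, the direction from 3 to 28 months was the same for most genes. In the liver all 10 log2 fold changes were negative in each of the 3 preps, with medians of -0.51, -0.31 and -0.85 and with 2, 1 and 7 genes called. In the brain 7, 8 and 7 of 10 were negative, with medians of -0.35, -0.30 and -0.32 and with 6, 0 and 4 called.

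**Figure D3:**
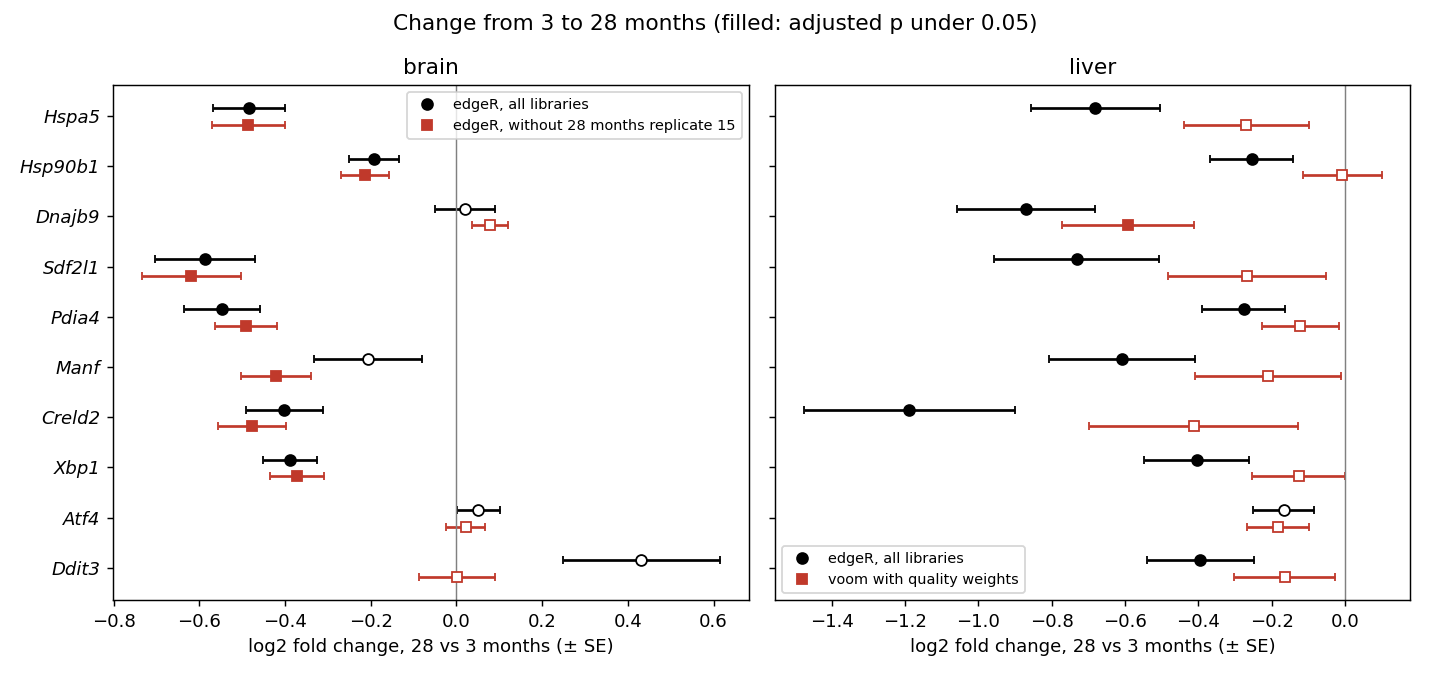
Log2 fold change from 3 to 28 months (horizontal axis, error bars SE) of the 10 genes in the brain and the liver; filled symbols have an adjusted p under 0.05. Black circles are the edgeR fit of all libraries; red squares are the edgeR fit without brain 28 months replicate 15, where Manf becomes called and Ddit3 moves to 0.00, and, in the liver, voom with sample quality weights, where only Dnajb9 is called.

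Other values moved with age beside these genes. Of 9 heat shock genes, cytosolic except for the mitochondrial chaperones Hspd1 and Hspe1, 9 fell in the liver (median log2 -1.21, beside 30.0% of all genes called lower) and 6 in the brain (median -0.17, beside 12.0%). Their summed level ran from 1364 to 3956 CPM in 3-month livers and from 1038 to 1863 CPM in 28-month livers. Between libraries, with age and prep means removed, this sum went with Hspa5 at r = 0.671 in 82 brains and r = 0.78 in 83 livers. Its part in the results was not tested. A clock score was the mean of the standardized levels of 12 clock genes, Arntl, Npas2 and Cry1 among them. All were counted with the same sign, so that genes moving in opposite directions cancel in it. The score had a median of 0.461 in 28-month livers against -0.241 at 3 months, with 6 of the 12 genes called higher and 3 lower. In the brain the medians were 0.354 and -0.124, but the old brains spanned -2.30, in replicate 15, to 1.44 (mean 0.265 ± 0.905, SD, against -0.0411 ± 0.317), with 5 genes called higher and 1 lower. The score itself was not tested. With that score as a covariate, 4 of the 10 genes were called lower in the liver, where the median log2 fold change was -0.43 instead of -0.51. In the brain 6 were called lower and Ddit3 higher (median -0.29 instead of -0.30). Plasma cells, which express ER chaperones strongly, were represented by 7 markers. Their sum was higher in old livers (105, 276 and 1705 CPM against 25.1, 49.6 and 114 CPM) and 6 of the 6 tested rose, beside 31.9% of all genes. In the brain the sum of 7 choroid plexus markers spanned 27.8 to 625.5 CPM at 3 months and 15.85 to 436 CPM at 28 months, with 0 of 7 called. Both pituitary markers tested, Gh and Pomc, were called lower in old brains (log2 -6.13 and -1.87), but not by either voom. The summed level of 6 such markers had a median of 1.18 CPM at 3 months and 1.14 CPM at 28 months. It was above 10 CPM in 2 of 15 young brains (replicates 1 and 5, up to 656 CPM) and in 0 of 18 old ones. With each of these young brains left out in turn, 6 of the 10 genes were called. Of 5 red blood cell genes 3 rose in the brain (median log2 1.06, beside 16.3% of all genes called higher), their sum going from 29.9, 75.3 and 234 CPM to 34.35, 129 and 725 CPM. In the liver 3 of these 5 rose and 1 fell (median 0.45), beside 31.9% and 30.0% of all genes. Of 5 hepatocyte markers 2 fell and 0 rose in the liver (median 0.06, beside 30.0% called lower). The part of the plasma cell, choroid plexus, pituitary, red blood cell and hepatocyte values in the results was not tested.

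Whether liver and brain changed differently between 3 and 28 months was tested in 1 fit over both tissues. For 3 of the 10 genes the liver change was more negative, and for none the brain change. Of all genes, 21.9% were called in that direction and 27.2% in the other, so that 3 of 10 is a share near that of all genes. Dnajb9 differed by a log2 of -0.85 ± 0.20 (adjusted p = 0.00027), Ddit3 by -0.78 ± 0.23 (adjusted p = 0.0028) and Creld2 by -0.73 ± 0.31 (adjusted p = 0.038). With the mouse as a block, Dnajb9 (-0.80 ± 0.20, adjusted p = 0.00069) and Ddit3 (-0.50 ± 0.20, adjusted p = 0.035) were called, Creld2 was no longer called (-0.52 ± 0.27, adjusted p = 0.11), and Pdia4 was called in the other direction (0.31 ± 0.11, adjusted p = 0.014), its relative fall being the smaller in the liver. Without the 2 least typical libraries of each tissue, Ddit3 stood at -0.39 ± 0.16 (adjusted p = 0.032) and Creld2 at -0.66 ± 0.31 (adjusted p = 0.064). With voom and quality weights Dnajb9 was called (-0.63), Ddit3 was not (-0.14, adjusted p = 0.41), and Hsp90b1 (0.26) and Pdia4 (0.35) were called in the positive direction. In the edgeR fit Hspa5 (-0.15 ± 0.20), Sdf2l1 (-0.10 ± 0.26), Xbp1 (0.03 ± 0.16) and Hsp90b1 (-0.02 ± 0.13) were not called, which does not show that they changed alike.

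Other genes of the pathway were described from lists, whose counts of called genes stand beside 30.0% of all genes called lower and 31.9% higher in the liver, and 12.0% and 16.3% in the brain. Of the sensors, liver Ern1 (IRE1) was lower at 28 months (56.7 ± 17.3 against 91.0 ± 19.1 CPM, mean ± SD; log2 -0.67 ± 0.10, adjusted p = 7.0e-08), with 36.2, 51.1 and 102 CPM at 28 months and 67.1, 88.8 and 131 CPM at 3 months. Liver Eif2ak3 (-0.22 ± 0.10, adjusted p = 0.056; called in 5 of 13 alternative fits, among them -0.26, adjusted p = 0.020 without the 2 least typical livers) and Atf6 (0.01 ± 0.07, adjusted p = 0.91) were not called. In the brain none of the 3 was called (Ern1 -0.02, Eif2ak3 -0.02, Atf6 -0.12). Without the 2 least typical brains they were again not called, with the sign turned for Ern1 (0.05) and Eif2ak3 (0.05) and Atf6 at -0.06. The ATF6 paralogue Atf6b was lower in both tissues (-0.22 in each). The liver call of Atf6b (adjusted p = 0.042) was made in 6 of 13 alternative fits and ended without any of 17 single libraries. In all, 2 of 6 sensor genes fell and 1 rose in the liver, the protease gene Mbtps2 (0.18 ± 0.06), and 1 fell in the brain. These shares are near those of all genes.

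Of 18 other ER chaperones and foldases, 13 fell and 1 rose in the liver (median log2 -0.29), and 8 fell and 2 rose in the brain (median -0.10), beside 30.0% lower in the liver and 12.0% in the brain over all genes. In the liver the lowest were Hyou1, an ER relative of HSP70 (-0.84 ± 0.21, adjusted p = 0.00043), and Ero1b, an ER oxidase (-0.64 ± 0.12), and the 1 that rose was Dnajc10, a reductase co-chaperone (0.27 ± 0.07). In the brain the lowest were Pdia6 (-0.40 ± 0.07, adjusted p = 2.4e-05) and Pdia5 (-0.36 ± 0.09), both disulfide isomerases. Pdia6 went from 102 ± 16.8 to 77.6 ± 18.1 CPM. Without brain 28 months replicate 15, at 133.9 CPM, its change was -0.46 ± 0.07. Sil1, a nucleotide exchange factor of BiP (0.32 ± 0.12), and Cdnf, the paralogue of Manf (0.31 ± 0.09), rose there. Brain 28 months replicate 15 had 64.5 CPM of Sil1 where the next old brain had 18.2 CPM, and without it the change was 0.11 ± 0.07 (adjusted p = 0.22). The Sil1 call also ended without brain 3 months replicate 3, 10 or 16, and was made in 5 of 13 alternative fits. Without the 2 least typical libraries the brain counts were 7 lower and 1 higher, and in the liver 13 and 1. Voom with quality weights called 9 lower and 1 higher in the liver, without Hyou1 (-0.43, adjusted p = 0.075).

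Of 13 genes of ER-associated degradation, 6 fell and 1 rose in the liver, and 3 fell and 2 rose in the brain, where all genes gave 12.0% and 16.3%. Liver Syvn1, the ubiquitin ligase HRD1, went from 74.5, 131 and 345 CPM at 3 months to 53.7, 83.2 and 123 CPM at 28 months (log2 -1.02 ± 0.17, adjusted p = 2.9e-07). Ubxn4 followed at -0.53 ± 0.08. In the brain Derl3 (-0.57 ± 0.12, adjusted p = 8.5e-05) and Sel1l, the partner of HRD1 (-0.20 ± 0.06), were lowest. Selenos rose in both tissues (0.21 ± 0.08 in the liver, 0.17 ± 0.05 in the brain). Its liver call was made in 7 of 13 alternative fits and not with the clock score. Os9 rose in the brain (0.13 ± 0.04), a call made in 9 of 13 alternative fits. Brain 28 months replicate 15 had 213 CPM of Os9 where the next old brain had 146 CPM. Without that library the Os9 change was 0.08 ± 0.03 (adjusted p = 0.025). Without the 2 least typical libraries the brain counts were 5 lower and 4 higher. Of 13 genes of translocation and COPII transport, 7 fell and 0 rose in the liver (30.0% and 31.9% of all genes), led by the coat subunit Sec23b (-0.44 ± 0.13; -0.24, not called, by voom with quality weights) and the translocon subunit Sec61b (-0.43 ± 0.06). In the brain 1 fell, Srprb of the signal recognition particle receptor (-0.11 ± 0.04, adjusted p = 0.041), and 1 rose, Sec61g (0.42 ± 0.14). The Srprb call ended with other size factors, with the clock score and without any of 42 single libraries, and was made in 7 of 13 alternative fits. Without brain 28 months replicate 15, the highest old brain at 49.96 CPM, Srprb was called at -0.15 ± 0.04 (adjusted p = 0.0011). Replicate 15 had 117.5 CPM of Sec61g where the next old brain had 24.5 CPM, and without it the change was 0.13 ± 0.08 (adjusted p = 0.19), although 0.13 was called without both least typical libraries (adjusted p = 0.020). Without the 2 least typical libraries 2 fell and 4 rose there. With all libraries the brain count was no larger than the share of all genes.

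In a list that joined ATF4 targets with other genes of the integrated stress response, such as eIF2 kinases, most genes called in the liver rose. Of 26 genes of the integrated stress response and of known ATF4 targets, 14 rose and 5 fell in the liver (median log2 0.34, beside 31.9% and 30.0% of all genes), while Atf4 itself was not called. Phgdh, the first enzyme of serine synthesis, had 0.0972, 0.229 and 0.869 CPM at 3 months and 0.415, 1.03 and 14.8 CPM at 28 months (log2 3.61 ± 0.55, adjusted p = 3.5e-08), and 4 of the 18 old livers had over 5 times the old median. Nupr1, a stress-induced transcriptional regulator, went from 0.614, 1.06 and 1.56 CPM to 1.08, 2.17 and 31.1 CPM (1.81 ± 0.27, adjusted p = 2.4e-08), the highest being replicate 14, with the next old liver at 4.61 CPM. Without replicate 14 the log2 fold change of Nupr1 was 1.13 ± 0.17 (adjusted p = 6.6e-08). Fgf21, a secreted hormone that ATF4 induces in the liver, fell from 0.39, 1.91 and 8.45 CPM to 0.0685, 0.559 and 2.43 CPM (-1.93 ± 0.44), and Atf5 fell from 418 ± 80.2 to 314 ± 71.8 CPM (-0.41 ± 0.09). In the brain 3 of 24 tested genes rose and 4 fell, shares near the 16.3% and 12.0% of all genes. They included Eif2ak2, the kinase PKR (0.44 ± 0.09), Psat1 (0.20 ± 0.05), Aldh18a1 (-0.26 ± 0.05) and Slc7a11 (-0.33 ± 0.10).

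The 10 genes were next compared between libraries of 1 tissue, on log2 CPM less the means of age and of prep. These correlations are descriptions: the genes of a library share its depth and RNA quality. Among the 45 pairs the median Pearson r was 0.569 over 83 livers and 0.356 over 82 brains. Hspa5 followed Manf, Creld2 and Hsp90b1 closely in the liver (r = 0.962, 0.958 and 0.912) and Atf4 little (r = 0.214). In the brain some pairs turned on the libraries that stand apart. Without the 2 least typical brains the median was 0.395 and the range -0.145 to 0.891, with Hspa5 and Pdia4 at 0.891 (0.607 with all libraries). In the same 80 brains Hspa5 had r = -0.0184 with Atf4 and r = -0.0272 with Ddit3, while Atf4 and Ddit3 had r = 0.607 with each other.

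**Figure D4:**
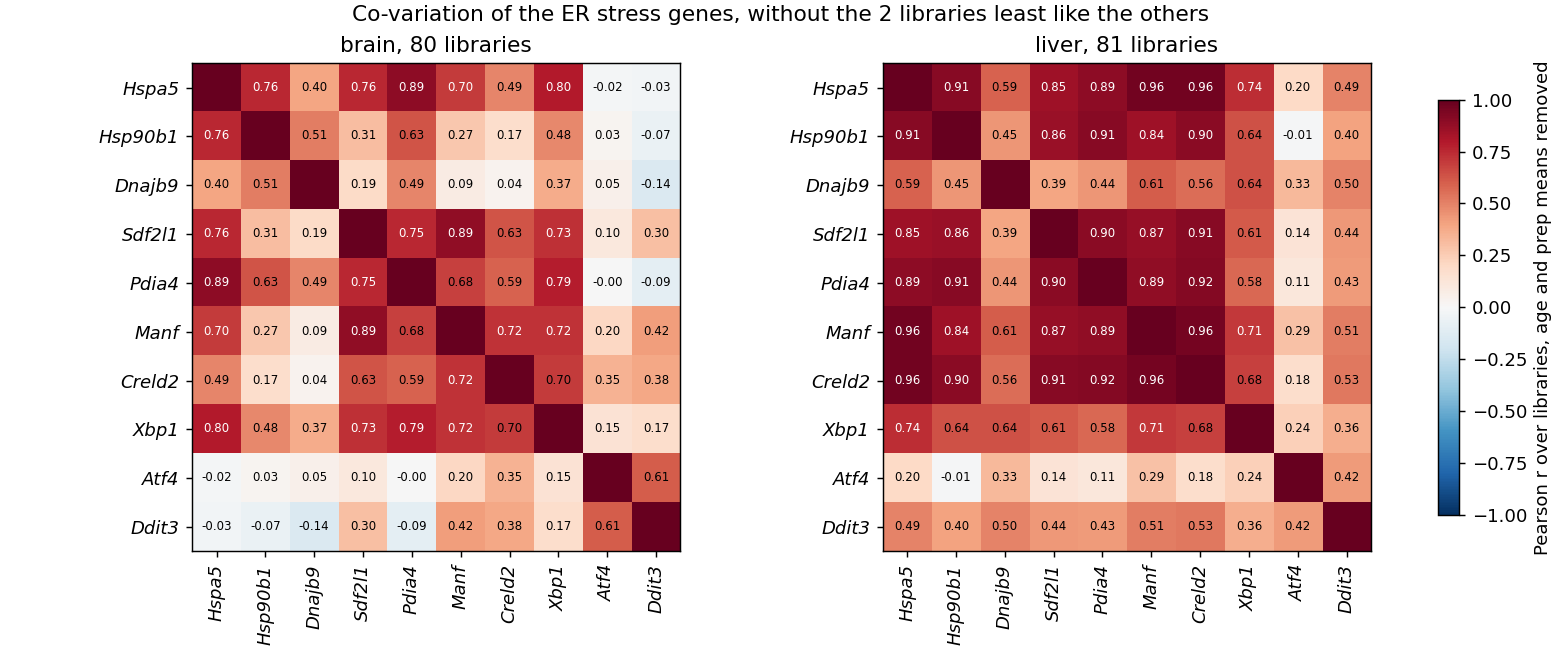
Pearson r between the 10 genes over 80 brain and 81 liver libraries, without the 2 least typical libraries of each tissue, on log2 CPM less the means of age and prep; the colour scale runs from -1 to 1. Hspa5 and Creld2 reach 0.964 in the liver, and the row of Hspa5 is palest at Atf4 and Ddit3 in the brain and at Atf4 in the liver.

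By the same measure, the 5 genes most like Hspa5 in the brain were Stip1 (r = 0.80), a co-chaperone that joins HSP70 to HSP90, Pdia3 (0.789), Mkks (0.781), Xbp1 (0.772) and Pdia6 (0.765), over 82 libraries. In the liver they were Hyou1 (0.964), Manf (0.962), Creld2 (0.958), Dnajb11 (0.923) and Sec23b (0.919), over 83 libraries. Without the least typical libraries all 10 had r of at least 0.785.

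The level of several of the genes in the brain of a mouse went with the level in its liver. At 3 months the 4 mice with the lowest Hspa5 in the brain (replicates 9, 1, 2 and 8, at 198, 210.5, 225 and 225.3 CPM) were also the 4 lowest in the liver (625, 563, 813 and 778 CPM) among the 15 mice with both. At the other end only 2 of the 4 highest brains were among the 4 highest livers, and of the 3 lowest brains 2 were among the 3 lowest livers. Replicate 16 was highest in both tissues, at 477 and 3007 CPM, while replicate 15 ranked 5 from the lowest of 15 in the brain (297 CPM) and 13 in the liver (2396 CPM). Over all 82 mice, with those means removed, Pearson's r of Hspa5 between the tissues was 0.624 and Spearman's rho 0.566. Across 14035 genes the median r was -0.00513 and the 95th percentile 0.251, and Hspa5 stood at the 99.8th percentile. The r was 0.328, 0.772 and 0.702 within preps 1, 2 and 3, and 0.564 without the 2 brains farthest from the median, both 3-month mice. By age it was 0.818, 0.324, 0.445, 0.496 and 0.618 from 3 to 28 months, over 15 to 18 mice each.

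Sdf2l1 (0.53), Pdia4 (0.517), Xbp1 (0.481) and Creld2 (0.44) followed over all 82 mice, while Manf had 0.28. Without the 2 brains that stand apart Manf had 0.64 and Creld2 0.604. By age, r among the 15 mice of 3 months was 0.879 for Sdf2l1, 0.843 for Pdia4, 0.73 for Xbp1, 0.921 for Creld2 and 0.848 for Manf. Among the 18 mice of 28 months the values turned on brain replicate 15, which is also in prep 3. With it r was 0.229, 0.439, 0.155, -0.137 and -0.0851 in the same order of genes, and without it, over 17 mice, 0.60, 0.774, 0.0988, 0.249 and 0.644. In prep 3 leaving it out moved r from 0.197 to 0.483 for Creld2 and from -0.0153 to 0.607 for Manf. Hsp90b1 had r = 0.254, with 0.00341 in prep 1 and 0.512 in prep 2. Dnajb9 (0.0475), Atf4 (-0.0113) and Ddit3 (-0.083) had r near 0. The summed heat shock genes had r = 0.274 between the tissues, the clock score 0.123 and the total counts 0.0939. The part of these in the relation of Hspa5 was not tested.

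**Figure D5:**
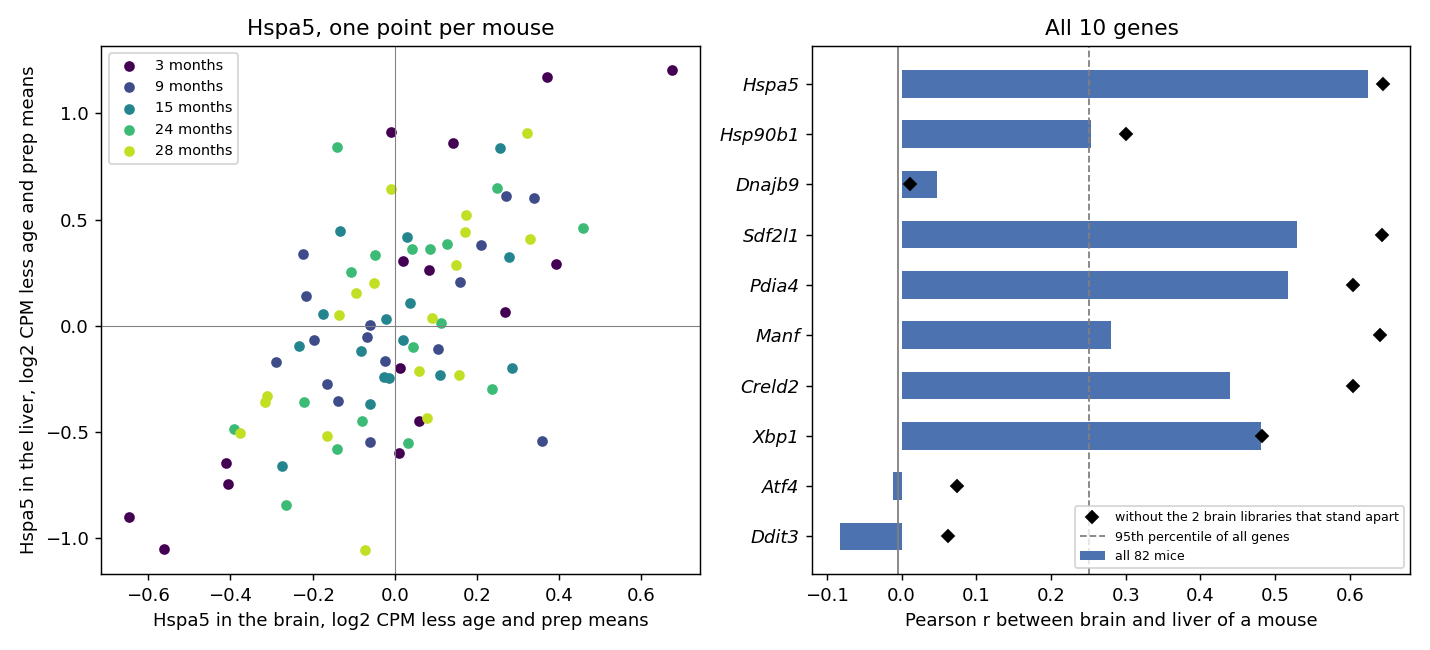
Left, Hspa5 in the brain against the liver of 82 mice, each as log2 CPM less the means of age and prep, coloured by age; r is 0.624. Right, Pearson r between brain and liver of each of the 10 genes (bars), the same without the 2 brains that stand apart (diamonds), the median over 14035 genes (solid line) and their 95th percentile (dashed line, 0.251); The bars of Dnajb9, Atf4 and Ddit3 end left of the dashed line and those of the other 7 genes right of it, with Hsp90b1 (0.254) and Manf (0.28) close to it.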

How the data were processed

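RNA from brain and liver of the same mice was sequenced as stranded, polyadenylated libraries with 100-base paired reads, per the labels and the design text. The deposited tables hold whole read counts per Ensembl gene, not normalized by the authors. The submitters' processing notes name cutadapt 2.8, HISAT2 2.1.0, SAMtools 1.9, featureCounts of Subread 2.0.1 and GRCm38.p6 (mm10), with no role or order; the strand setting of the counting is not given in the sources used here. Symbols, exon lengths and overlaps came from GENCODE M21, which held 55144 of the 55471 rows.

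Counts were tested with edgeR 4.0.16 (R 4.3.3) by the quasi-likelihood test, after filterByExpr and TMM scaling, with age and prep as terms over all libraries of a tissue, and Benjamini-Hochberg adjustment over all genes tested. The SE is the log2 fold change divided by the root of F. CPM values are TMM-scaled within a tissue. The tissues were compared in 1 joint fit with both scaled together. The fits were tested on simulated data. With a true log2 change of 0.5 they recovered 89% of changed genes in the brain and 72% in the liver, and 31% for the difference between tissues. At a log2 change of 1 the shares were 100%, 97% and 90.9%. The simulated spread followed its trend with mean level, without gene-specific spread, prep effects, unusual libraries or pairing by mouse. The joint run used the liver trend for both tissues. These shares need not hold for genes noisier than the trend.

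The members and lists were chosen with earlier results of these data known. All 10 members are named; from each other list, the called genes whose mean level reached 1 CPM were ranked by fold change, and up to 2 in each direction named, besides the 3 sensors. Likeness to Hspa5 is Pearson's r on log2 CPM (prior count 2) less age and prep means, among genes of at least 1 CPM, with the 5 highest named. A brain and a liver of the same age and number come from 1 mouse by their labels; over 82 mice the median correlation of their deviations was 0.0501, against -0.00457 for different mice.

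Alternatives were DESeq2 1.42.0, voom of limma 3.58.1 with and without quality weights (the latter chosen after seeing the data), other size factors, no filter, no prep term, a clock score as covariate, only the ages compared, each prep alone, a replicate block, and leaving out each library or the 2 least like the others. Tables and plots were made with Python 3.11.15, pandas 2.3.3, numpy 2.4.6 and matplotlib 3.10.9. No column of either table was left unused.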

Additional observations from a re-analysis of the deposited data

Results flagged for a closer look

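The changes of 3 genes from 3 to 28 months differed between liver and brain by the test of the difference itself, the liver change being the more negative in each: Dnajb9 by a log2 of -0.85, Ddit3 by -0.78 and Creld2 by -0.73. Of all 14035 genes, 21.9% were called in that direction and 27.2% in the other, so that 3 of 10 is near the share of all genes. In the joint scaling, the mean level of Dnajb9 went from 161 to 89.6 CPM in the liver and from 44.5 to 44.7 CPM in the brain. Ddit3 went from 12.3 to 9.72 CPM in the liver and from 14.4 to 19.99 CPM in the brain, where 1 library, brain 28 months replicate 15, stood at 124 CPM. Creld2 went from 105 to 47.7 CPM in the liver and from 13.0 to 9.90 CPM in the brain. Brain and liver came from the same mice, and the calls differed in stability: with the mouse as a block Creld2 was not called (-0.52, adjusted p = 0.11, edgeR), and it was called in 1 of 5 alternative fits, with its sign turned by voom with quality weights (0.08). Ddit3 was called in 4 of the 5, but its size moved: the difference was -0.39 without the 2 least typical libraries of each tissue, -0.50 with the mouse as a block and -0.14 (adjusted p = 0.41, not called) by voom with quality weights. In the brain alone its change was 0.43 with replicate 15 and 0.00 without it. Dnajb9 was called in all 5.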

How the results depend on the processing

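Counts below are of the 10 genes called. From 9 to 15 months every fit listed under the methods called 0 in both tissues. In the brain, the count from 3 to 9 months (0) became 1 with DESeq2 and 2 with voom and quality weights or without the 2 least typical libraries, with 0 to 2 when each library was left out. From 15 to 24 months (0) it became 2 with voom and quality weights. From 24 to 28 months (0) it became 1 with the clock score and 2 with voom and quality weights (0 to 3 leaving out a library). From 3 to 28 months (6) it became 0 in prep 2 and 4 in prep 3 (6 to 7 leaving out a library). It became 7 with the clock score, with voom without weights and without the 2 least typical libraries, and 8 with voom and quality weights. Among these, Ddit3 was called higher with the clock score and Dnajb9 with voom and quality weights. In the liver, the count from 3 to 9 months (1) became 3 with DESeq2, 2 with no prep term, and 0 with only those ages, in each prep alone and with either voom (0 to 5 leaving out a library). From 15 to 24 months (1) it became 0 in preps 1 and 3 and 2 with either voom (0 to 2). From 24 to 28 months (2) it became 0 with the clock score, with only those ages and in preps 2 and 3, 1 with no filter and 4 in prep 1 (0 to 3). From 3 to 28 months (9) it became 4 with the clock score, 2 in prep 1, 1 in prep 2 and 1 with voom and quality weights (6 to 10). It became 6 with only those ages and 7 in prep 3. The count was 8 with voom without weights, with the replicate block and without the 2 least typical libraries. The cause of these moves was not tested.

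Signs turned in the brain for Dnajb9 (-0.048 with the clock score, -0.11 in prep 3), Manf (0.11 in prep 3), Atf4 (-0.013 in prep 2) and Ddit3 (-0.0025 without the 2 least typical libraries). For the liver-minus-brain difference they turned for Xbp1 (-0.0016 with other size factors, -0.033 without the 2 least typical libraries), Hsp90b1 (0.013 with no filter, 0.018 with the mouse as replicate block) and, with voom and quality weights, Hspa5 (0.21), Hsp90b1 (0.26), Sdf2l1 (0.32), Manf (0.20) and Creld2 (0.079). Within a tissue the replicate number is only a number: same-numbered libraries had a median correlation of 0.00955 in the brain and 0.0091 in the liver, and 9 of 82 and 3 of 83 libraries were most like their own number. With that number as a replicate block, 6 genes were called in the brain and 8 in the liver from 3 to 28 months.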
